A study of Mus musculus with 16 samples.

Results

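Receptors of the innate immune system that recognise microbial molecules were examined in tissue labelled smooth muscle of the mouse proximal colon. The animals had no microbiota, a normal one, or one received from donors. The genes are the Toll-like receptors Tlr1, Tlr2, Tlr3, Tlr4 and Tlr5, the cytosolic receptors Nod1 and Nod2, the adaptor Myd88 and the co-receptor Cd14, taken by name from the platform annotation. Of the 9 genes listed, 8 had a probe, 1 each, among 25697 probes that name 11055 genes in all, and no probe was named Tlr5, which was not analysed here. All 8 probes passed the filter on dim probes, which asked that at least 4 of the 16 arrays give a detection p-value under 0.05. Tlr3 and Nod2 passed it narrowly, with detection on 5 arrays each, and the other 6 genes were detected on all 16.

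RNA was measured on Illumina mouse BeadChips, where a probe's signal is the mean brightness of the beads that carry it. All mice were wild type C57Bl/6, aged 8 to 10 weeks when the donors were treated, and the 4 groups held 4 arrays each. Germ-free (GF) mice had no microbiota, and specific pathogen-free (SPF) mice carried that of the animal facility. The control recipients, labelled C/-Lop, were GF mice gavaged with cecal contents of untreated donors. The PIC recipients, labelled C/+Lop, received cecal contents of donors with pharmacologically-induced constipation (PIC), caused by 0.1% loperamide, an opioid that slows the gut, given in drinking water for 7 days. Both kinds of recipient were examined 4 weeks after colonization, and the labels name loperamide for the donors. Whether the arrays of a group come from separate animals is not stated in the labels, so that the p-values reflect the spread among arrays, part of which may be technical.

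Toll-like receptors are membrane proteins that bind conserved parts of microbes, such as bacterial lipoproteins, lipopolysaccharide or double-stranded RNA, while Nod1 and Nod2 detect fragments of bacterial peptidoglycan inside the cell. Most Toll-like receptors pass their signal through the adaptor Myd88 to NF-kappaB, a transcription factor that switches on inflammatory genes. In the gut wall these receptors are known from macrophages, epithelium, enteric neurons and glia, and smooth muscle itself.

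Smooth muscle was present, as labelled: 10 of 10 smooth muscle markers passed the filter, 9 of them detected on all 16 arrays. Other layers were present as well, since 10 of 14 markers of colonic epithelium were measured and detected on every array. The values below are thus those of muscle and epithelium together. SPF replicates 2 and 4 stood apart before any receptor was considered, with the highest smooth muscle marker levels of the 16 arrays (mean log2 intensity of 11.91 and 11.90, against 10.53 to 11.31 on all others). Xist, which is transcribed from the inactive X chromosome, exceeded a log2 intensity of 6 on 1 SPF array, on 2 arrays of each recipient group and on no GF array, so that sex was not balanced between the groups. Median intensities were 116.6 to 167.6 per array and 12364 to 13942 probes were detected. In whole tissue, fewer cells of a type and less RNA per cell cannot be told apart. Values below are log2 intensities after background correction and quantile normalization, and levels of different probes are not set against each other.

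Tlr2, the receptor for bacterial lipoproteins, was lowest in GF mice. Its gene lies on chromosome 3 (83836272 to 83841824, minus strand, mouse assembly GRCm38.p6). On the GF arrays Tlr2 read 8.95, 8.09, 8.67 and 8.66, and on the SPF arrays (replicates 1, 2, 4 and 13) it read 8.72, 9.17, 8.84 and 9.64. The values in control recipients were 9.46, 9.16, 9.33 and 9.37, and those in PIC recipients 9.31, 9.36, 9.51 and 9.45. Every recipient array thus lay above every GF array, whereas the SPF arrays overlapped with both. Group means were 8.59 ± 0.36 in GF mice, 9.09 ± 0.41 in SPF mice, 9.33 ± 0.13 in control recipients and 9.41 ± 0.09 in PIC recipients (SD, n = 4 each). As scanned, before background correction and normalization, the intensities were 351.4 to 600.9 in GF mice, 560.9 to 784.0 in control recipients and 526.9 to 869.2 in PIC recipients, so that each recipient group then overlapped with GF mice.

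Nod1, the receptor for peptidoglycan fragments that carry diaminopimelic acid, was highest in SPF mice. Its gene lies on chromosome 6 (54923942 to 54972674, minus strand). The SPF arrays (replicates 1, 2, 4 and 13) read 8.41, 8.73, 8.68 and 8.25, and the GF arrays 8.25, 7.83, 8.01 and 8.39. Control recipients read 8.37, 8.26, 8.19 and 8.28, and PIC recipients 7.93, 8.07, 8.09 and 8.09. The PIC recipients lay below every SPF and every control recipient array but within the range of GF mice. The means were 8.52 ± 0.23 in SPF mice, 8.12 ± 0.25 in GF mice, 8.27 ± 0.08 in control recipients and 8.04 ± 0.08 in PIC recipients (SD, n = 4 each). The highest Nod1 values were those of SPF replicates 2 and 4, the arrays that stood apart in muscle markers.

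The promoters of these 2 genes, whose differences passed the test in at least 1 comparison, are shown to give the sequence context of the members that moved, with 250 bases before and 10 after the transcript's start. Both were read 5′ to 3′ on the gene's strand from RefSeq (GRCm38.p6, chr3:83841599-83841858 for Tlr2 and chr6:54972603-54972862 for the outer of the Nod1 starts in that table). The gene spans given above reach past these starts, to 83841824 for Tlr2 and 54972674 for Nod1. Part of the bases counted as before each start thus lies within the gene. Capitals mark matches on either strand to the NF-kappaB consensus (the kappaB motif) or to the GC box GGGCGG.
Tlr2: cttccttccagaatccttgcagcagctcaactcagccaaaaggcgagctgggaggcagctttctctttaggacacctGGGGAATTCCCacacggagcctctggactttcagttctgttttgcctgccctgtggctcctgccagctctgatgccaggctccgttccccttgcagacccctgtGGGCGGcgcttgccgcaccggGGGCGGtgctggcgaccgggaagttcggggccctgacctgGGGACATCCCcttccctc
Nod1: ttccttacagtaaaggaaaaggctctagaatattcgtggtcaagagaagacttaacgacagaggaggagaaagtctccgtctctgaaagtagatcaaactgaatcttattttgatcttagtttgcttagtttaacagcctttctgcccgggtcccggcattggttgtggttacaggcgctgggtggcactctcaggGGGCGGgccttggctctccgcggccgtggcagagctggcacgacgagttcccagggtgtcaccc
The Tlr2 window held 3 kappaB matches, counted from the start of this transcript, and all 3 lay within the gene's span. One began at -173 and overlapped another at -172, and the third ran from -8 to 2. GC boxes stood at -69 and -48. The Nod1 window held a GC box at -54 and no kappaB match. Members that were not called held such matches too. Tlr3 had a kappaB match (-211 to -202), and Tlr3, Nod2 and Myd88 had GC boxes. The Tlr1 windows held neither, and those of Tlr4 and Cd14 were not examined. Of all 32851 mouse promoter windows of 300 bases, 8.46% held a kappaB match and 35.7% a GC box, and a match is a description of the letters only.

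The other surface receptors varied within groups about as much as between them. Tlr1, the partner of Tlr2 for triacylated lipoproteins (chromosome 5, 64924680 to 64933600), read 6.28 to 6.56 in GF mice, 6.25 to 6.81 in SPF mice, 6.30 to 6.70 in control recipients and 6.17 to 6.67 in PIC recipients. Whether its probe also reads the closely similar Tlr6 was not tested. Tlr4, the receptor for lipopolysaccharide (chromosome 4, 66827551 to 66846581), spread the most, with 6.47 to 7.46 in GF mice, 6.42 to 7.57 in SPF mice, 6.55 to 7.00 in control recipients and 6.47 to 7.05 in PIC recipients. Its SD within groups was 0.38, against 0.12 to 0.29 for the other 7 genes. Cd14, which hands lipopolysaccharide to Tlr4 (chromosome 18, 36725064 to 36726815), read 7.73 to 8.63, 8.21 to 8.65, 8.37 to 8.93 and 8.45 to 8.81 in the same order of groups. In none of these 3 genes did any pair of groups separate.

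Tlr3, the endosomal receptor for double-stranded RNA (chromosome 8, 45395665 to 45411075), was near the background in all groups. It was detected on 2 GF, 2 SPF, 0 control recipient and 1 PIC recipient arrays, and its values ran from 4.56 to 5.25. Nod2, the receptor for muramyl dipeptide (chromosome 8, 88647315 to 88688474), was likewise dim. Its values were 4.99, 5.30, 5.12 and 4.92 in GF mice, 5.01, 4.79, 4.93 and 5.29 in SPF mice, 5.25, 5.06, 5.20 and 5.15 in control recipients and 4.98, 5.04, 4.79 and 4.56 in PIC recipients. Nod2 passed detection on 3 control recipient arrays, on 1 GF and 1 SPF array, and on none of the PIC recipient arrays.

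Myd88, the shared adaptor (chromosome 9, 119335934 to 119340018), had the narrowest spread of the 8 genes, with an SD within groups of 0.12. GF arrays read 10.49, 10.49, 10.70 and 10.74, and SPF arrays 10.57, 10.55, 10.50 and 10.66. Control recipients read 10.50, 10.54, 10.36 and 10.68, and PIC recipients 10.26, 10.36, 10.31 and 10.53. The PIC recipients held the 2 lowest values, and only 1 of their arrays lay within the range of GF mice. Each value of a member rested on 23 to 60 beads, whose standard error was 2.04% to 6.2% of the intensity.

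**Figure D1:**
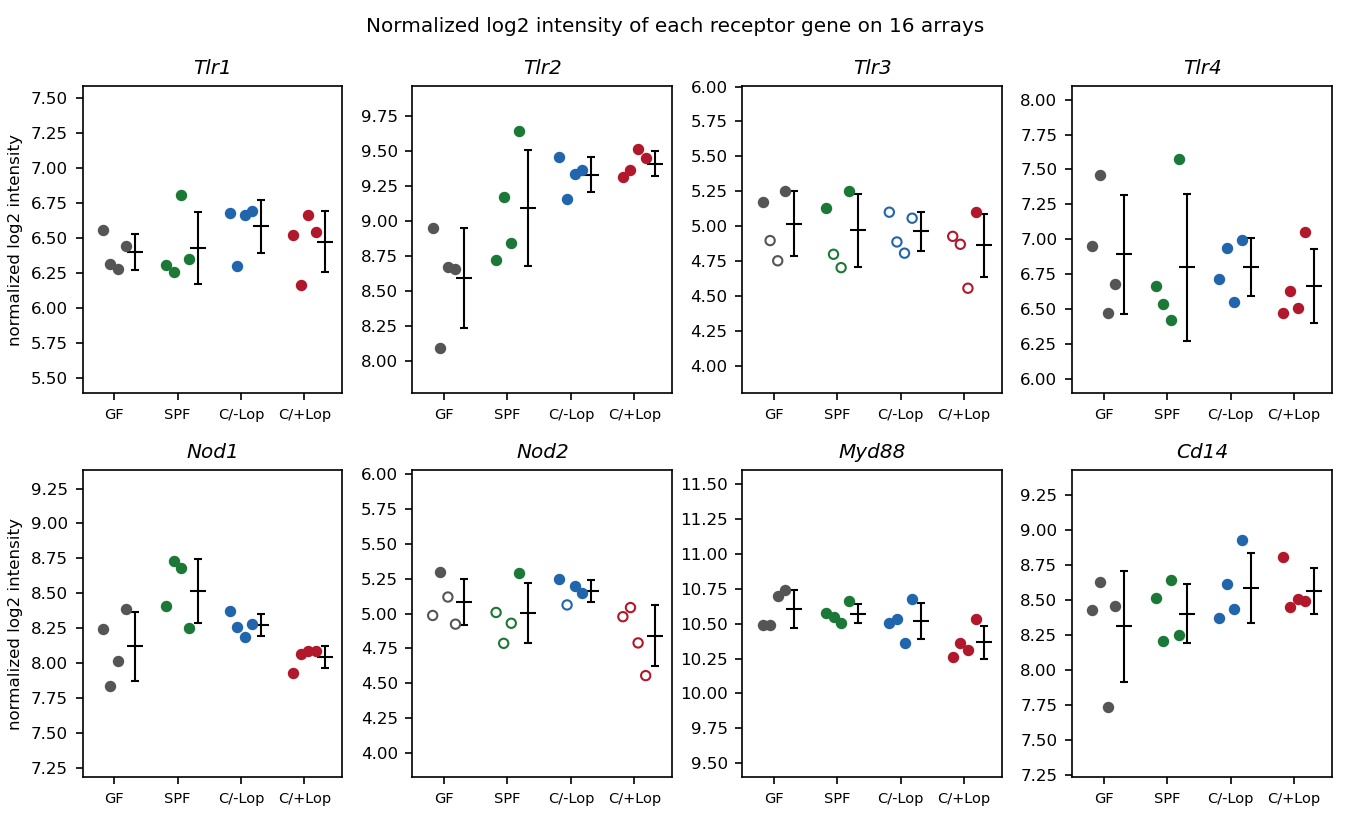
Normalized log2 intensity (y axis) of the 8 receptor genes on 16 arrays, 1 panel a gene and 1 point an array, with the mean and SD of each group of 4 beside the points and open circles where the probe was not detected. Tlr2 lies at 9.16 or more on every recipient array and at 8.95 or less on every GF array, and Tlr3 and Nod2 are mostly open circles.

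The comparison of SPF with GF mice asked what the presence of a normal microbiota goes with in this colon tissue. Nod1 was higher in SPF mice by 0.40 on the log2 scale (standard error, SE, 0.13, 95% interval 0.13 to 0.67, 1.32-fold, limma with Benjamini-Hochberg adjustment over 14102 probes, adjusted p = 0.0366), although the groups overlapped. Tlr2 differed by 0.50 (SE 0.19) and did not pass (adjusted p = 0.0691). The other 6 genes differed by -0.09 to 0.09, with intervals within -0.61 to 0.47. So 1 of 8 receptor probes was called, where 19.9% of all probes were. The Nod1 call rested on SPF replicates 2 and 4: without both the difference was 0.21 (adjusted p = 0.39), and without replicate 2 or replicate 4 alone the adjusted p was 0.12 and 0.0988. It was lost too without GF replicate 2 (adjusted p = 0.124) or GF replicate 3 (0.0728), with the epithelial markers as a covariate (0.13, adjusted p = 0.71) and with array weights (0.23, adjusted p = 0.223). Without GF replicate 1 or SPF replicate 1, Tlr2 passed as well (adjusted p = 0.0429 and 0.0325).

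Control recipients against GF mice asked what colonization with a microbiota of untreated donors goes with. Tlr2 was higher in control recipients by 0.74 (SE 0.19, interval 0.34 to 1.14, 1.67-fold), and the groups did not overlap. The difference passed the threshold by a small margin (limma, adjusted p = 0.0465). The other 7 genes differed by -0.09 to 0.27 and none passed. Thus 1 of 8 receptor probes was called, against 2.7% of all probes, and 1 of 8 did not overlap between groups, against 12.9% of all probes. Leaving out any 1 of these 8 arrays other than GF replicate 1 ended the call, with adjusted p of 0.0819 to 0.112, while the difference stayed at 0.57 to 0.80. The lowest of these differences was that without GF replicate 2, whose Tlr2 value of 8.09 was the lowest of all arrays.

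PIC recipients against GF mice gave the same gene, on the same 4 GF arrays, so that the 2 comparisons are not independent. Tlr2 was higher in PIC recipients by 0.82 (SE 0.19, interval 0.42 to 1.21, 1.76-fold, limma, adjusted p = 0.0173), again with no overlap. Without GF replicate 2 the difference was 0.65 and the call held (adjusted p = 0.0393), and it was lost only without PIC recipient replicate 3 among the arrays left out (adjusted p = 0.0502). Myd88 differed by -0.24 (interval -0.44 to -0.04, adjusted p = 0.134) and did not pass. Nod2, detected on 0 PIC recipient and 1 GF array, did not pass either (adjusted p = 0.259), and its difference lies between values near the background. Called were 1 of 8 receptor probes and 7.09% of all probes. Non-overlapping between the groups were 1 of 8 and 17.2%.

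PIC recipients against control recipients asked whether this tissue differs between mice given the microbiota of constipated donors and of untreated donors. No receptor gene passed the test, and no probe of the array did, so that 0 of 8 stood beside 0% of 14102 probes (limma), and the methods' t-test with the same adjustment called 0 of 8 too. At an unadjusted p under 0.05 stood 1 of 8 receptor probes and 608 of all probes. That receptor was Nod2 (adjusted p = 1), of whose 5 arrays with detection 3 were control recipients, so that it passed the filter mainly through the group where it read higher. Since it was detected on no PIC recipient array, only a bound on the difference of the means can be given, of 1.04-fold higher in control recipients. For it, PIC recipient values below the lowest detected signal of their array were raised to that signal. Control recipient values were kept, that of the undetected replicate 2 among them. The bound has no interval and is not an established minimum. Of the 8 receptor probes 2 did not overlap between the recipients, Nod1 and Nod2, beside 4.12% of all probes. Nod1 differed by -0.23 (interval -0.50 to 0.04, limma, adjusted p = 1). Nod2 read 4.56 to 5.04 in PIC recipients and 5.06 to 5.25 in control recipients, values near the background. Tlr2 differed by 0.08 between the recipients, with an interval of -0.32 to 0.48. The 8 differences had a median of -0.12 beside 0.00497 over all probes, with Tlr3 and Nod2 near the background. The signs of the Cd14, Tlr3 and Tlr4 differences changed under some of the alternative settings given below. The intervals of the 8 genes together spanned -0.65 to 0.48.

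Against SPF mice, the recipients showed how far a received microbiota leaves the receptors from those of mice colonized in the facility. In control recipients 0 of 8 receptor probes passed (limma), where 16.8% of all probes did, and 0 of 8 had an unadjusted p under 0.05, against 4694 of all probes. Tlr2 differed by 0.24 (interval -0.16 to 0.63) and Nod1 by -0.24 (interval -0.51 to 0.02). In PIC recipients Nod1 was lower by 0.48 on the log2 scale (difference -0.48, SE 0.13, interval -0.74 to -0.21, 1.39-fold, limma, adjusted p = 0.0159), with no overlap. Called were 1 of 8 receptor probes and 22% of all probes, and non-overlapping were 1 of 8 and 23%. The SPF arrays are the same as in the comparison with GF mice, and SPF replicates 2 and 4 carried this difference too: without both it was -0.29 (adjusted p = 0.204), and without replicate 2 alone it was -0.40 (adjusted p = 0.0579). The call held without replicate 4 alone (-0.42, adjusted p = 0.0456) and with the epithelial markers as a covariate (-0.40, adjusted p = 0.0194). Without SPF replicate 13, Tlr2 passed as well, higher in PIC recipients by 0.50 (adjusted p = 0.0404).

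**Figure D2:**
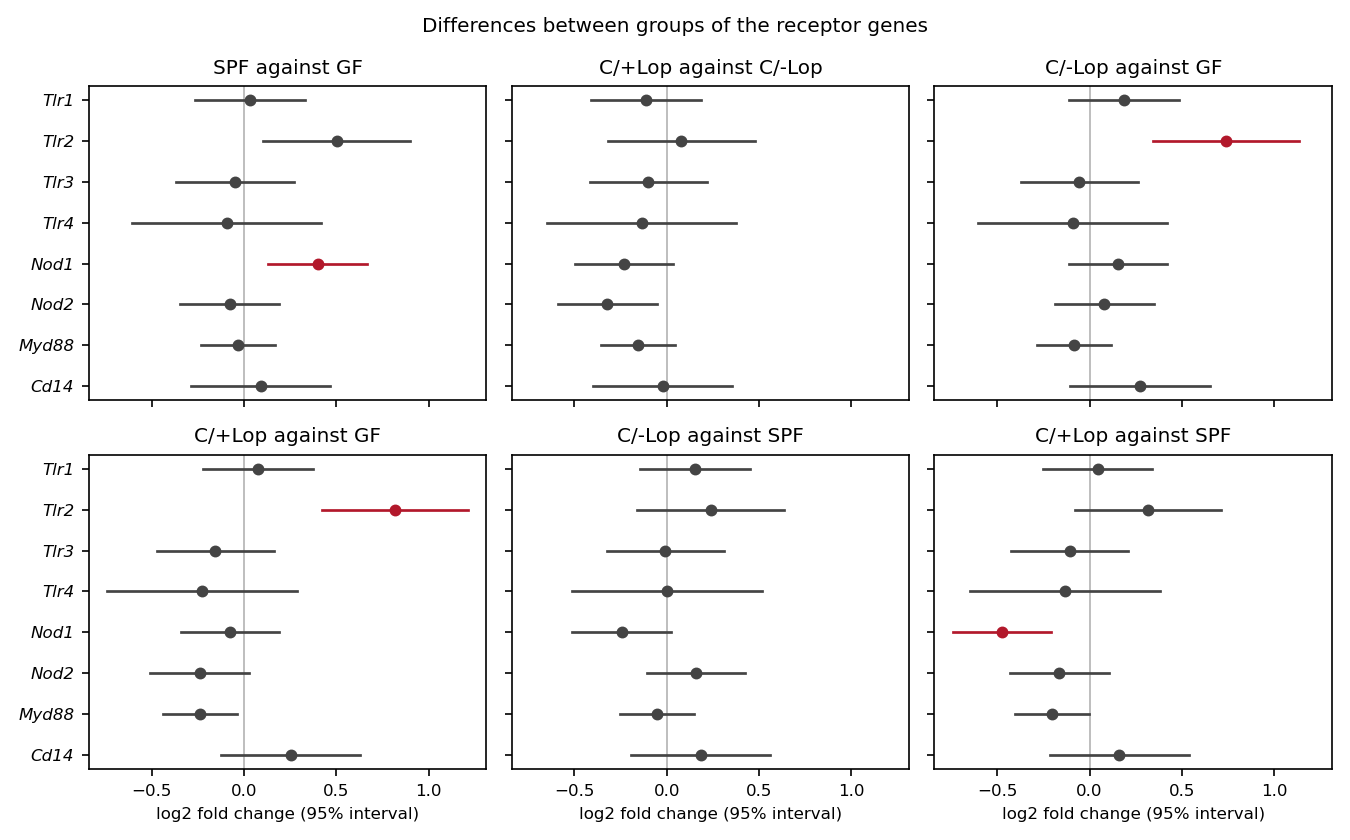
Log2 fold change (x axis) of the 8 receptor genes with its 95% interval in 6 comparisons of groups of 4 arrays, first group minus second, red where the adjusted p was under 0.05. Red are Nod1 in SPF against GF mice (0.40) and in PIC recipients against SPF mice (-0.48), and Tlr2 in both recipient groups against GF mice (0.74 and 0.82).

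Markers of macrophages and monocytes, cells rich in Tlr2, moved with the same groups. Of 13 such markers 9 were measured, 8 of them on all 16 arrays. Their summed normalized level was 2021 to 2785 on GF arrays, 3008 to 6724 on SPF arrays, 3486 to 5726 in control recipients and 4209 to 5409 in PIC recipients. Against GF mice 5 of 9 were higher in SPF mice, 3 of 9 in control recipients and 4 of 9 in PIC recipients, with medians of 0.73, 0.82 and 0.75. With arrays scaled to a common median the counts were 7, 0 and 3 of 9, and without SPF replicates 2 and 4 only 1 of 9 was higher in SPF mice (median 0.32). The complement gene C1qc, the chemokine receptor Cx3cr1 and the lysozyme Lyz2 passed in all 3 comparisons on all arrays as normalized here, with Cx3cr1 higher by 1.64, 1.13 and 1.19. Array by array the match was partial: GF replicate 2 was lowest in both Tlr2 and the markers, but SPF replicate 13, highest in Tlr2 (9.64), had the lowest marker sum of the SPF arrays (3008). SPF replicate 4, with a marker sum of 5402, read Tlr2 at 8.84, within the range of GF mice. Markers of T and NK cells summed to 151 to 229 on GF arrays, 136 to 250 on SPF arrays, 228 to 585 in control recipients and 256 to 565 in PIC recipients. The upper ends of the recipients were those of replicate 4 in each group, and the other arrays reached 274 and 285. None of the 4 measured passed in limma, while 0, 2 and 3 of 4 had an unadjusted p under 0.05 in SPF mice, control recipients and PIC recipients against GF mice. Markers of B and plasma cells, of which 4 of 7 were measured, summed to 180 to 216 on GF arrays, 451 to 1368 on SPF arrays, 625 to 1218 in control recipients and 584 to 1123 in PIC recipients. Against GF mice 4, 2 and 2 of these 4 were higher, in the same order of groups, with medians of 1.53, 1.39 and 1.39. Of neutrophil markers 2 of 8 and of dendritic cell markers 1 of 6 were measured, none detected on all 16 arrays. The part of these cells in the Tlr2 differences was not tested.

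Nod1 moved in part with markers of fibroblasts and smooth muscle. All 6 fibroblast markers were measured, with a summed level of 5208 to 9946 on GF arrays, 7855 to 13413 on SPF arrays, 7336 to 7915 in control recipients and 6480 to 8464 in PIC recipients. Against GF mice, 3 of them rose in SPF mice (Col1a1 by 1.51, Col1a2 by 0.71, Pdgfra by 0.57), and the same number was lower in each recipient group than in SPF mice. Smooth muscle markers summed to 47157 to 70486 on GF arrays, 61630 to 86817 on SPF arrays, 50878 to 59606 in control recipients and 54243 to 57023 in PIC recipients, and 7 of 10 rose in SPF against GF mice. SPF replicates 2 and 4 held the highest values of both lists as of Nod1, and without them 1 of 6 fibroblast and 0 of 10 muscle markers passed against GF mice. On the other arrays the match was loose. GF replicate 3 had their highest muscle mean (11.31 on the log2 scale) with Nod1 at 8.01, and GF replicate 4 had 10.73 with Nod1 at 8.39. PIC recipients lay below every control recipient in Nod1 at like muscle means (10.79 to 10.84 against 10.66 to 11.01). Of 4 markers of interstitial cells of Cajal, the pacemakers of the gut, 3 were measured and all 3 rose in SPF against GF mice (median 0.93), while 1 was lower in control recipients and 2 in PIC recipients than in SPF mice. Of 7 endothelial markers 3 rose in SPF against GF mice (median 0.52), and 1 and 2 were lower in control and PIC recipients than in SPF mice. Epithelial markers went the other way, from 51338 to 59722 on GF arrays to 38965 to 50535 on SPF arrays, with 5 of 10 lower (median -0.30). Without SPF replicates 2 and 4, 0 of 10 passed and the median was -0.18. The part of tissue makeup in the Nod1 differences was not tested beyond the epithelial covariate given above.

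**Figure D3:**
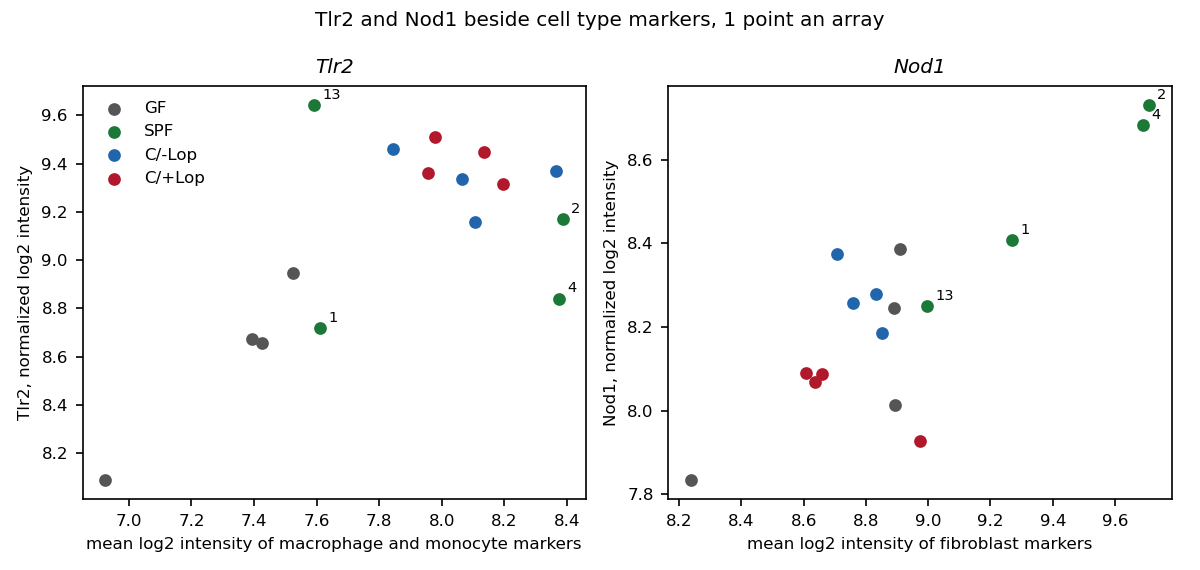
Normalized log2 intensity of Tlr2 against the mean log2 intensity of 9 macrophage and monocyte markers (left) and of Nod1 against that of 6 fibroblast markers (right), 1 point an array, SPF arrays numbered by replicate. On the left GF arrays lie lowest in the markers but overlap with SPF arrays in Tlr2. SPF replicate 13 lies high in Tlr2 alone (9.64), and SPF replicate 4 lies high in the markers alone (8.375). On the right SPF replicates 2 and 4 lie highest in Nod1 (8.73 and 8.68).

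The genes around these receptors were followed in 8 lists, of which 75 genes were measured, each by its probe with the highest mean. In SPF against GF mice 11 of 75 were higher and 2 lower, beside 10.9% and 9.55% of all 9862 genes, and their median difference was -0.01, beside 0.01 over all genes. In control recipients against GF mice 7 were higher and 0 lower, beside 1.46% and 1.3%, with a median of 0.14. In PIC recipients against GF mice 5 were higher and 4 lower, beside 3.33% and 3.86%, with a median of 0.10. Between the recipients 0 of 75 passed, and 0 had an unadjusted p under 0.05. The higher calls in recipients depended on the scaling: with arrays scaled to a common median, 0 of 75 genes were called in control recipients against GF mice, and 2 higher and 4 lower in PIC recipients against GF mice.

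Among the other Toll-like receptors, 3 of 7 were measured. Tlr13, which in mice recognises bacterial ribosomal RNA, was higher than in GF mice by 0.83 in control recipients (adjusted p = 0.0328) and by 0.78 in PIC recipients (0.0235), without overlap in either. It was detected on 1 GF array, on 4 arrays of each recipient group and on 3 SPF arrays. Near the background the size depended on its correction, being 0.25 and 0.23 without one, and the call in control recipients was lost with cyclic loess (adjusted p = 0.0504) and median scaling (0.0672). Tlr6, the partner of Tlr2 for diacylated lipoproteins, was higher by 0.48 in control recipients (adjusted p = 0.0464), and its difference of 0.26 in PIC recipients did not pass (0.197). The Tlr6 call was lost with cyclic loess (adjusted p = 0.0768), with median scaling (0.155) and without background correction (0.15, adjusted p = 0.0862).

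Of the co-receptors and chaperones 7 of 9 were measured, and the 2 that passed did so in all 3 comparisons with GF mice. Unc93b1, which carries the endosomal Toll-like receptors to their compartment, was higher by 0.68 in SPF mice, 0.55 in control recipients and 0.66 in PIC recipients (adjusted p = 0.00373, 0.0352 and 0.00856). Its other probe gave 0.43, 0.74 and 0.69, of which the first did not pass. With median scaling the first-named Unc93b1 probe lost its call in control recipients (limma, adjusted p = 0.181). In PIC recipients it then stood at the threshold (0.05), and in SPF mice it passed (0.00492). Hsp90b1, the chaperone that folds most Toll-like receptors, Tlr2 among them, was higher by 0.40, 0.56 and 0.46 in the same order (adjusted p = 0.00753, 0.00474 and 0.00861), but with median scaling it passed in none of the 3 (0.0875, 0.073 and 0.126).

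Downstream of the receptors the calls went both ways. Of 14 adaptors and kinases measured, 4 passed in SPF against GF mice, each higher, led by Ikbkb, a kinase that releases NF-kappaB (0.45, adjusted p = 0.00542), Tab2 (0.48, 0.00749) and Tirap, the bridge between Tlr2 or Tlr4 and Myd88 (1.44, 0.00874, with 3.03 by its other probe). In control recipients 0 of 14 passed, with 4 at an unadjusted p under 0.05. In PIC recipients Ikbkb was higher by 0.33 (adjusted p = 0.0436) and the kinase Irak2 lower, with a difference of -0.40 (0.0179) that its other probe did not show past the threshold (-0.26, 0.179). Of 7 transcription factors, the NF-kappaB subunits Rela and Relb were lower in PIC recipients than in GF mice, with differences of -0.36 (adjusted p = 0.0202) and -0.39 (0.041), and Irf5 was higher in SPF mice by 1.01 (0.00259), or by 0.35 without background correction. Tollip, an inhibitor of Toll-like receptor signalling, differed by -0.28 in PIC recipients (adjusted p = 0.0384), but its other probe by -0.02 (0.949). With median scaling, Relb (adjusted p = 0.0655) and Ikbkb in PIC recipients (0.273) no longer passed.

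Of 12 genes of NOD signalling and the inflammasome, 3 passed in SPF against GF mice and 0 in either recipient group, where 2 (control) and 5 (PIC) had an unadjusted p under 0.05. The 3 were Slc15a3, a transporter of peptides out of endosomes (0.93, adjusted p = 0.00951), the protease Casp1 (-0.42, 0.0265) and the ubiquitin ligase Birc2, whose 3 probes disagreed (0.26, 0.41 and -0.39). Slc15a3 was detected on 2 of the 4 GF arrays and differed by 0.30 without background correction. Casp1 lost its call without SPF replicates 2 and 4 (-0.22, adjusted p = 0.309). Among 15 negative regulators, Sigirr was lower in SPF mice (-0.60, adjusted p = 0.00485), a call lost without SPF replicates 2 and 4 (-0.43, adjusted p = 0.069) and with median scaling (0.0723). Of 9 inflammatory target genes measured, the adhesion molecules Icam1 in SPF mice (0.62, adjusted p = 0.00757) and Vcam1 in control recipients (0.87, 0.0434) were higher than in GF mice. Icam1 did not pass without SPF replicates 2 and 4 (0.41, adjusted p = 0.0889). Of 8 other pattern recognition genes, the peptidoglycan-binding Pglyrp1 was higher than in GF mice in all 3 groups (0.37, 0.67 and 0.71, adjusted p = 0.0333, 0.00663 and 0.00368), and the lectin Clec4n in control recipients (0.96, 0.027). With median scaling Pglyrp1 passed in none of the 3 (adjusted p = 0.321, 0.0927 and 0.0668).

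**Figure D4:**
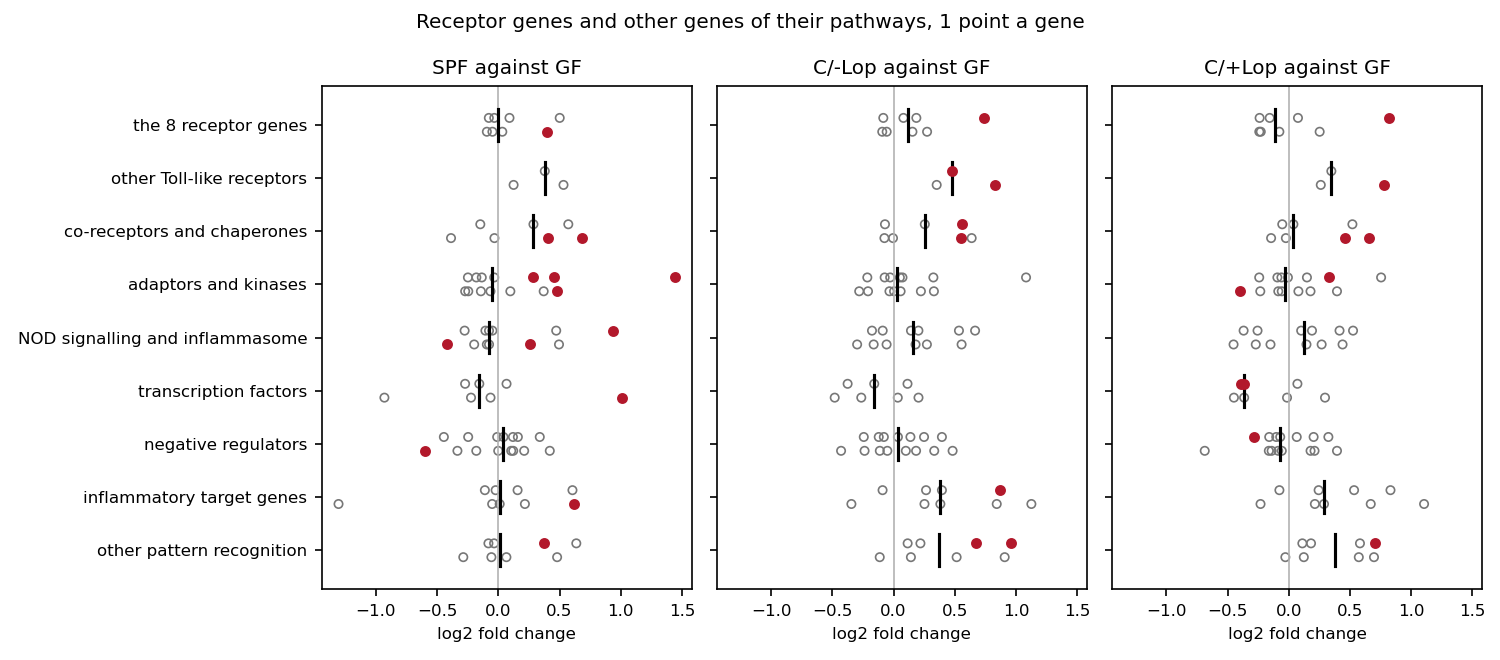
Log2 fold change (x axis) of the 8 receptor genes and of 75 other genes of their pathways, 1 point a gene, by list (rows) and comparison (panels), red where the adjusted p was under 0.05, with the median of each list as a black bar. Red points to the right number 11, 7 and 5 among the 75 genes in the 3 panels, and red points to the left 2, 0 and 4.

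Across the 16 arrays the 8 receptor genes did not move as a block. Pearson's r between their log2 values ran from -0.33 to 0.54 over 28 pairs, described without a test, since the arrays share groups and scaling. The genes most like Tlr2 were Rassf4 (r = 0.873), Cd69 (0.858), an activation marker of lymphocytes, and Klrd1 (0.85), a receptor of NK cells. Those most like Nod1 were the vasopressin receptor Avpr1a (0.907), Vstm4 (0.907) and the fibroblast marker Pdgfra (0.887). For Myd88 they were Nop14 (0.856), Emc3 (0.814) and Tut7 (0.802), for Tlr4 Slk, Iqgap2 and St3gal4 (0.843, 0.843 and 0.804), and for Cd14 Pdxdc1, Lsr and Naa35 (0.843, 0.842 and 0.831). By ranks (Spearman's rho) the genes named for Tlr2 gave 0.638, 0.788 and 0.826, and those for Cd14 0.609, 0.7 and 0.597. Those for Nod1, Myd88 and Tlr4 gave 0.747 to 0.885. Tlr1 was least matched, with Nkain4 (0.688), the macrophage marker Fcgr1 (0.682) and Proser3 (0.677). Nkain4 was detected on 8 of the 16 arrays and Fcgr1 on 4, so that these values lie partly near the background. For Tlr3 and Nod2, mostly below detection, they were Irf8, Rab39b and Nepro (0.795, 0.775 and 0.751), and Zfp595, Pde4dip and Eef1aknmt (0.842, 0.824 and 0.823).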

How the data were processed

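Per probe and array, the authors deposited the mean bead intensity (linear, not normalized), its standard error over beads, the count of beads and a detection p-value. The authors also deposited normalized log2 values for 16029 of 25697 probes, which lay within 0.0251 of those obtained here. The submitters' processing notes name limma; its version is not given in the sources used here, and the paper describes no test for these arrays. Intensities passed through limma 3.58.1 (R 4.3.3) as follows: neqc (normexp with controls inferred from detection p-values, offset 16, quantile normalization, log2), a filter (4 or more of 16 arrays with a detection p-value under 0.05, 14102 probes left), lmFit with a mean per group over all 16 arrays (12 residual degrees of freedom) and eBayes, with Benjamini-Hochberg adjustment over the kept probes and a threshold of 0.05. The script was tested on simulated data. Of 15096 named probes, 15091 were matched by Entrez identifier to the gene table of GRCm38.p6. Each member had 1 probe. Of other lists the counts were taken and, by name, up to 3 genes with the smallest p that passed. The 3 genes with the highest Pearson's r to each member were named. Groups came from the labels, and the SPF replicate labelled 13 was kept. Ages and treatments came from the labels and methods, while the paper's results give the recipients as older when colonized. The members, lists and tests were chosen with earlier results of these data known. List genes with no kept probe of that name were not analysed here. The number of arrays limits the precision.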

Additional observations from a re-analysis of the deposited data

Results flagged for a closer look

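Within groups of 4 arrays, the gap of the highest or lowest array to its nearest neighbour was set against the whole range. Of 32 pairs of gene and group, 3 exceeded Dixon's 95% critical value, where chance flags about 1 in 20 groups. Tlr1 was low on control recipient replicate 2 (6.30, a ratio of 0.92). Nod1 was low on PIC recipient replicate 1 (7.93, a ratio of 0.868), the array that had the highest fibroblast mean of its group (8.975 on the log2 scale). Cd14 was high on the same array (8.81, a ratio of 0.833). Without that array Nod1 differed between PIC recipients and SPF mice by -0.44 (limma, adjusted p = 0.045) and stayed past the threshold.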

How the results depend on the processing

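Over all alternatives, 1020 values of the 8 genes were recomputed: 987 kept their side of the threshold, 28 fell below it, 5 passed newly and 0 called values reversed, while 73 changed sign where neither value was called. In SPF against GF mice, 1 receptor gene was called and 0 were with the 2 groups alone, with array weights, with epithelial markers or sex as a covariate, without SPF replicates 2 and 4, and with the methods' t-test; 2 were with median scaling. Leaving out 1 array gave 0 to 2. In control recipients against GF mice the 1 call became 0 with the 2 groups alone, epithelial markers or sex as a covariate, median scaling, no filter or the methods' t-test, and 0 to 1 with 1 array left out; the Tlr2 difference was 0.74 with the 2 groups alone, 0.74 with epithelial markers and 0.80 with sex. In PIC recipients against GF mice it became 0 with the methods' t-test, and 0 to 1 with 1 array left out. Against SPF mice, 1 gene was called in control recipients with median scaling (Nod1, -0.49, adjusted p = 0.0234) in place of 0, and in PIC recipients 0 without SPF replicates 2 and 4 or with the methods' t-test, and 0 to 2 with 1 array left out. Between the recipients 0 were called under every alternative run. At its unadjusted threshold the methods' t-test counted 0 in SPF against GF mice, 1 and 2 in control and PIC recipients against GF mice, 2 between the recipients, and 0 and 2 in control and PIC recipients against SPF mice. Adjusted p ranged from 0.0127 to 0.71 for Nod1 in SPF against GF mice, from 0.0265 to 0.131 and from 0.0085 to 0.0749 for Tlr2 in control and PIC recipients against GF mice, and from 0.00377 to 0.204 for Nod1 in PIC recipients against SPF mice. Why calls were lost was not tested.

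Over all groups the replicate numbers showed no common pairing: deviations of 21 same-numbered pairs correlated at -0.545 to 0.357, 3 of them above 0.1. The 4 pairs between the recipient groups correlated at 0.0178, 0.0523, 0.177 and 0.357. In both recipient groups Xist exceeded 6 on replicates 2 and 3 alone. Replicate 4 had the highest sum of T and NK cell markers in both (585 and 565). Whether same-numbered recipients were matched is not stated in the labels, and the main fit compared them as unpaired. A block for the recipients alone was not run. With the replicate number as a block the counts of receptor genes were 1, 1 and 1 in SPF mice, control recipients and PIC recipients against GF mice, 0 between recipients, and 0 and 1 in control and PIC recipients against SPF mice, and the count over all probes in control recipients against GF mice went from 381 to 237. In that fit SPF replicate 13 was alone in its block, so that it added nothing to the comparisons with SPF mice. Over all probes, other alternatives gave 119 to 2975 calls in SPF against GF mice, 102 to 1194 and 385 to 1971 in control and PIC recipients against GF mice, and 631 to 3132 and 976 to 3253 against SPF mice. Median scaling moved the share of higher calls from 49.7% to 68.4%, from 52.2% to 17.7%, from 48.7% to 17.3%, from 49.1% to 8.37% and from 51.6% to 13.5% in the same order, and took the median of all probes as far as -0.145, in control recipients against SPF mice, from 0.0186. Recomputing the gene lists under the scalings and without SPF replicates 2 and 4 was chosen after seeing the data; without these arrays 8 of 75 pathway genes were higher and 0 lower in SPF than in GF mice. The slide as a block was not run, since the files name no slides, and Tlr3 and Nod2 gave no value under the stricter filter, which removes them. Both lie near the background, where small differences are not detectable.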
